A study of Caenorhabditis elegans with 12 samples.

Results

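The insulin-like peptide genes of the nematode Caenorhabditis elegans were followed across 12 microarrays of worms from a space flight and its controls. The family was taken as every gene on the array named ins- followed by a number, together with daf-28, and held 40 of the 20018 genes measured. A single array was hybridised for each of 3 strains under each of 4 conditions. N2 is the wild type, LS292 carries dys-1(cx18), a mutation in the gene for dystrophin, a muscle protein that anchors the cytoskeleton, and MT4930 carries ced-1(n1995), a mutation in a receptor for engulfing dying cells. The labels give no change to any insulin gene in these strains, and every strain went through all 4 conditions. In static flight, dauer larvae spent 16.5 days at 23 °C in a static slot of the flight incubator, in microgravity, and received 1.92 mGy. In centrifuged flight they spent the same time in the same incubator on a centrifuge at 1 g and received 2.27 mGy. For both, about 100000 dauer larvae were loaded with fresh medium 10 h before launch and collected 7 h after landing. The ground control was run 2 days later in a static slot on the ground for 16.5 days at 23 °C, and was also collected 7 h after its end. The transport control worms were left at the university in an incubator and travelled nowhere, and the sources used here do not say for how long, in which vessels or when they were collected. Per the design text, only technical repeats were made, so the strains serve as the replicates, and the p-values reflect only how these 12 arrays vary.

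Insulin-like peptides are small secreted hormones, released mainly by sensory neurons and the gut. They bind DAF-2, the only insulin receptor of the worm. Active DAF-2 signals through the kinases AGE-1, PDK-1 and AKT, which keep the transcription factor DAF-16 out of the nucleus, and growth to the adult goes on. When signalling is low, DAF-16 enters the nucleus and larvae can enter dauer, a long-lived resting stage. Some peptides, such as DAF-28, INS-4 and INS-6, activate the receptor and oppose dauer entry, and INS-6 also promotes exit from it. Others, such as INS-1, INS-17 and INS-18, oppose the receptor and favour dauer.

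Each value below is the log2 of the deposited, normalized fluorescence intensity, so 1 unit is a 2-fold difference. Most members had low signals, with a mean below that of the median gene for 30 members and above it for 10. The mean over the 12 arrays was under 7, an intensity of 128, for 16 of the 40 members, and the files hold no mark that says which signals are above background. Of the 40 members, 30 were read by 6 probes and 10 by 5. ins-38 is annotated as a pseudogene in the reference gene table, and the other members as protein-coding.

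The arrays had similar median intensities, from 225.6 to 252.4. Mean intensity lay between 1018.9 and 1159.6 on 11 arrays and at 902.3 on ced-1-GC, where an array is named by its strain and by SS for static flight, SC for centrifuged flight, GC for ground control or TC for transport control. dys-1 mRNA read 7.29 to 8.68 on the arrays of the dys-1 mutant and 7.25 to 8.17 on the others, and ced-1 mRNA read 9.56 to 10.28 on those of the ced-1 mutant and 9.89 to 10.68 on the others. The position of their probes against the mutations is not given, so these levels are no check of the labels. Whether markers of stage were above background on each array could not be judged. The yolk protein gene vit-5, which adults use, read 8.02 to 11.90, and the dauer collagen gene col-2 read 8.55 to 13.22.

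The members did not move together. The range over the 12 arrays was under 1 unit for 7 members and over 2 units for 10. The transport control had the highest mean of the 4 conditions for 18 members, static flight for 9, centrifuged flight for 7 and ground control for 6. Over all genes the shares of the first 3 were 33.6%, 31.1% and 19.2%. Static flight had the lowest mean for 18 members, the transport control for 12, and centrifuged flight and ground control for 5 each, against 27.2%, 31.1%, 17.3% and 24.4% of all genes. Tested for any difference among the 4 conditions, 6 members passed (ins-4, ins-20, ins-24, ins-30, ins-33 and ins-35), against 8.23% of all genes. Summed over the members, the intensity was 19065 to 26428 on the transport control arrays, 11393 to 14682 in ground control, 11336 to 15613 in centrifuged flight and 8696 to 14441 in static flight. The brightest members weigh most in such a sum. The median member read 6.93 to 7.23, 7.03 to 7.10, 6.96 to 7.27 and 6.83 to 7.06 in the same order, so the medians of the transport control did not stand apart.

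**Figure D1:**
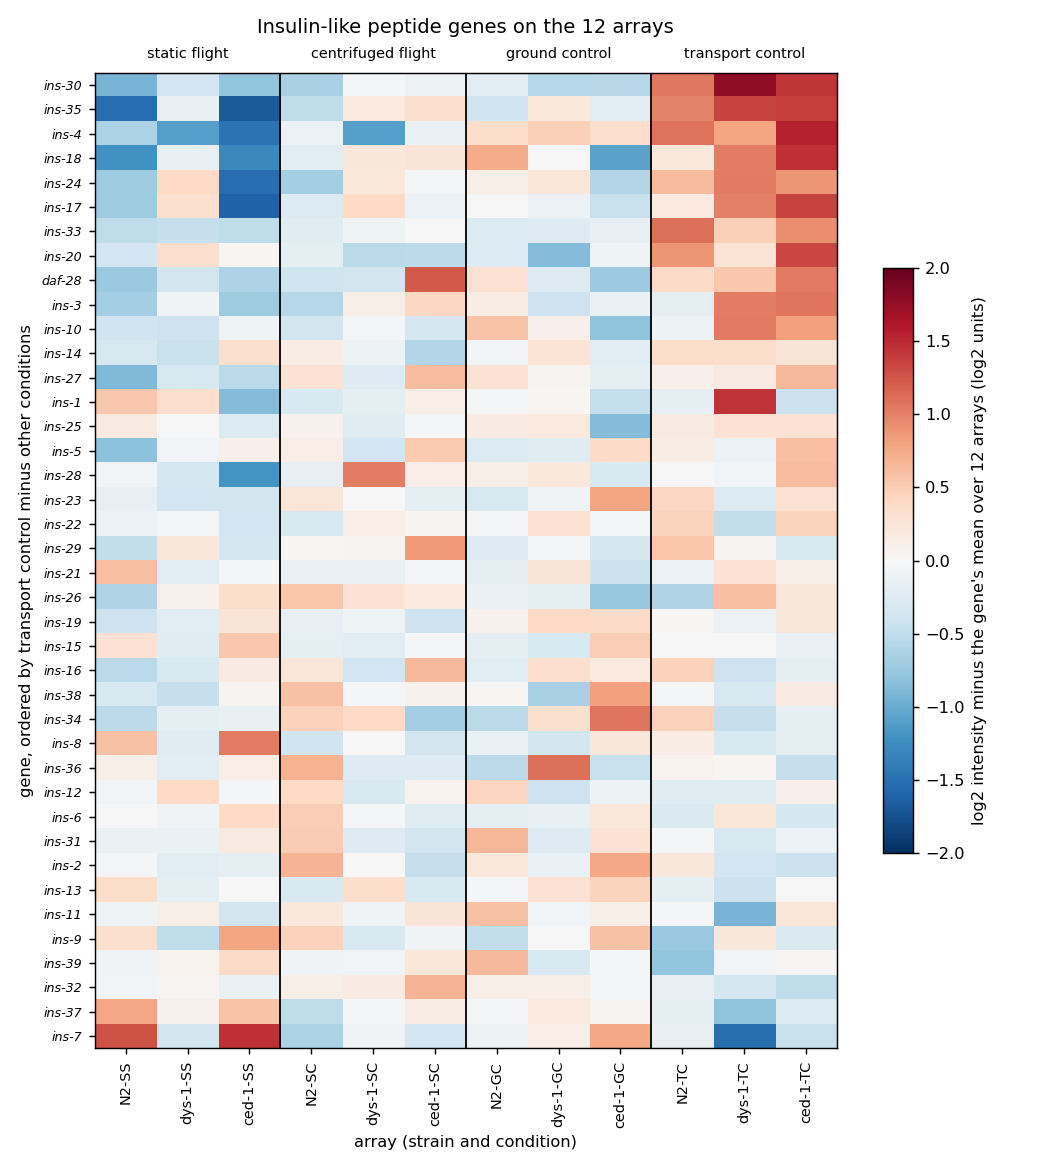
Each cell is the log2 intensity of a member (rows) on an array (columns) minus that member's mean over the 12 arrays, in log2 units, with members ordered by the transport control minus the other conditions. The upper rows, from ins-30 to ins-33, are red on all 3 transport control arrays, and ins-7 at the bottom is bluest on the dys-1 transport control array.

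The transport control set 9 members apart from the other 3 conditions. ins-3, ins-4, ins-17, ins-18, ins-20, ins-24, ins-30, ins-33 and ins-35 were higher there by between 0.84 and 1.89 units, or 1.80-fold to 3.71-fold, with the same direction in 3 of 3 strains for each. Both agonists and antagonists of the receptor were among them. In the whole genome 6% of genes were higher and 6.47% lower at the same threshold, an adjusted p under 0.05, against 9 of 40 members (22.5%) higher and 0 lower. Before adjustment, at a p under 0.05, there were 11 members higher and 3 lower, against 14.1% and 12.4% of all genes.

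Among the agonists, ins-4 acts with daf-28 and ins-6 against dauer entry. In the order N2, dys-1 and ced-1, which is kept throughout, ins-4 read 9.39, 9.10 and 9.85 in the transport control, 8.65, 8.78 and 8.65 in ground control, 8.18, 7.20 and 8.17 in centrifuged flight and 7.66, 7.20 and 6.83 in static flight. All 3 transport control arrays stood above the 9 others, the ground control arrays came next and lay close together, and the flown arrays were lowest. The transport control was higher by 1.52 ± 0.24 (SE, adjusted p = 0.000679), a 2.87-fold difference. ins-35, made in gut and neurons, read 10.27, 10.63 and 10.67 in the transport control, 8.87, 9.49 and 9.05 in ground control, 8.77, 9.47 and 9.61 in centrifuged flight and 7.76, 9.14 and 7.61 in static flight. Again the transport control arrays did not overlap with the rest, and the lowest readings were the N2 and ced-1 arrays of static flight. The rise was 1.66 ± 0.24 (adjusted p = 0.000335), or 3.16-fold.

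ins-3, a further agonist, gave a weaker result. Its readings were 6.59, 7.78 and 7.83 in the transport control, 6.92, 6.35 and 6.63 in ground control, 6.20, 6.89 and 7.19 in centrifuged flight and 6.09, 6.69 and 6.05 in static flight. The N2 transport control array lay within the range of the others, so the groups overlapped and the mutants carried the difference. It came to 0.84 ± 0.26 (adjusted p = 0.0494). In the list of 8 peptides taken as agonists (daf-28, ins-3, ins-4, ins-5, ins-6, ins-7, ins-32 and ins-35), 3 were higher in the transport control and 0 lower, with a median of 0.56 against 0.004 for all genes. At an unadjusted p under 0.05 in limma, 4 were higher and 2 lower (ins-7 and ins-32), so the list did not move in 1 direction.

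Of the 4 peptides taken as antagonists (ins-1, ins-17, ins-18 and ins-37), 2 were higher in the transport control and 0 lower, with a median of 0.75. At an unadjusted p under 0.05 in limma, 1 was lower (ins-37). ins-17 read 11.15, 11.97 and 12.30 in the transport control, 10.94, 10.84 and 10.51 in ground control, 10.68, 11.36 and 10.84 in centrifuged flight and 10.25, 11.28 and 9.34 in static flight. ins-18 read 9.30, 10.13 and 10.55 in the transport control, 9.84, 9.10 and 8.03 in ground control, 8.89, 9.33 and 9.36 in centrifuged flight and 7.89, 8.94 and 7.80 in static flight. Both had their highest reading on ced-1-TC and low readings on N2-SS and ced-1-SS, and both overlapped between groups through the N2 transport control array. The rise was 1.14 ± 0.30 (adjusted p = 0.0228) for ins-17. For ins-18 it was 1.20 ± 0.35 (adjusted p = 0.0377).

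The other 4 members that rose have less settled roles. ins-30 changed most, with 10.96, 11.67 and 11.32 in the transport control against 9.67, 9.33 and 9.34 in ground control, 9.25, 9.85 and 9.79 in centrifuged flight and 8.96, 9.52 and 9.11 in static flight. The lowest transport control array was more than 1 unit above the highest of the 9 others, which overlapped among themselves. Its mean was 11.32 ± 0.36 (SD, n = 3) in the transport control and 9.43 ± 0.31 (SD, n = 9) elsewhere, a rise of 1.89 ± 0.20 (SE, adjusted p = 2.24e-05), or 3.71-fold. ins-33, which the developmental timing factor LIN-14 represses, read 8.76, 8.14 and 8.59 in the transport control, 7.39, 7.41 and 7.50 in ground control, 7.42, 7.57 and 7.66 in centrifuged flight and 7.16, 7.20 and 7.16 in static flight. Within each of the other conditions its 3 strains lay close together, and none reached the transport control. The rise was 1.11 ± 0.18 (adjusted p = 0.000908).

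ins-24 read 12.52, 12.92 and 12.77 in the transport control, 11.99, 12.12 and 11.29 in ground control, 11.20, 12.09 and 11.83 in centrifuged flight and 11.17, 12.28 and 10.35 in static flight. Its transport control arrays were the 3 highest, and the other arrays were spread widely, with ced-1-SS lowest. It rose by 1.14 ± 0.26 (adjusted p = 0.0116). ins-20 read 7.94, 7.33 and 8.38 in the transport control, 6.79, 6.18 and 6.97 in ground control, 6.85, 6.51 and 6.53 in centrifuged flight and 6.68, 7.39 and 7.09 in static flight. The dys-1 arrays of the transport control and of static flight crossed, so the groups overlapped. The rise was 1.11 ± 0.24 (adjusted p = 0.00699).

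**Figure D2:**
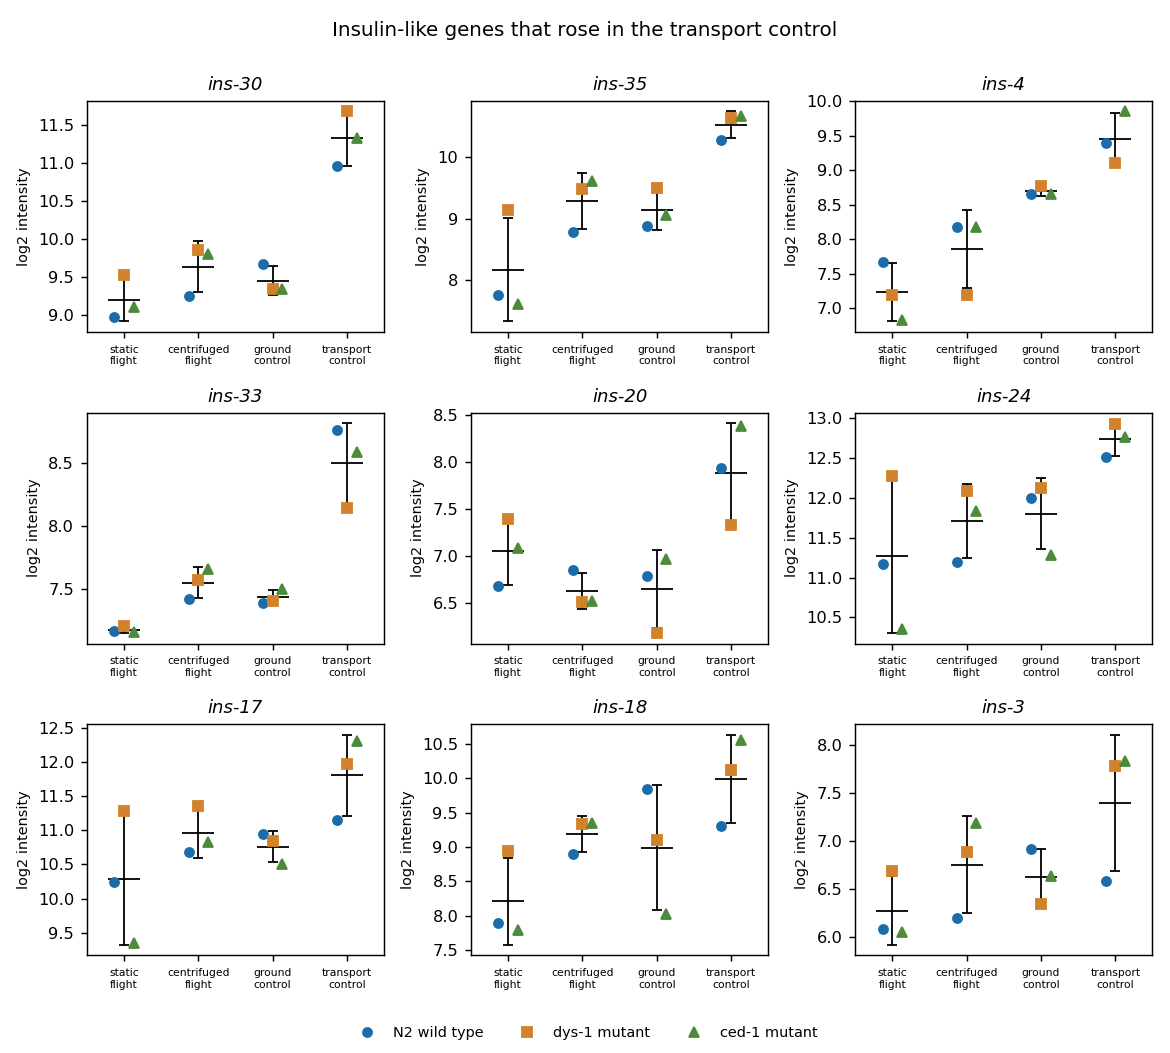
Log2 intensity of the 9 members that rose in the transport control, by condition, with a symbol per strain, a horizontal line at the mean and bars of 1 SD (n = 3); each vertical axis has its own range. For ins-30, ins-35, ins-4, ins-33 and ins-24 the 3 transport control arrays lie above all 9 others, and ins-4 steps down from transport control to ground control to the flown conditions.

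Readings of 5 members did not overlap and were higher in the transport control (ins-4, ins-24, ins-30, ins-33 and ins-35), against 3.56% of all genes, and 1 was lower without overlap (ins-32), against 4.69%. How far the calls rest on single arrays differed among members. ins-4, ins-30, ins-33 and ins-35 passed with any array left out, with a largest adjusted p of 0.0156 for ins-4, 0.000606 for ins-30, 0.0124 for ins-33 and 0.00771 for ins-35. Without ced-1-TC those 4 members alone passed, and ins-3, ins-17, ins-18, ins-20 and ins-24 did not, at adjusted p from 0.1001 (ins-20) to 0.368 (ins-18). Without dys-1-TC 6 members passed. Leaving out an array can cost calls for any gene, and the shares of all genes called in these fits are not given here.

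Among members that did not pass, those with the smallest p were, in the upward direction, daf-28 at 0.87 ± 0.31 (adjusted p = 0.0881) and ins-10 at 0.78 ± 0.28 (adjusted p = 0.0914). Downward, ins-7 was at -0.94 ± 0.31 (adjusted p = 0.0683), ins-37 at -0.56 ± 0.21 (adjusted p = 0.106) and ins-32 at -0.45 ± 0.19 (adjusted p = 0.136). ins-10 read 6.99, 8.14 and 7.92 in the transport control, 7.68, 7.20 and 6.30 in ground control, 6.74, 7.07 and 6.77 in centrifuged flight and 6.71, 6.68 and 7.02 in static flight. Only the mutants stood out there, since N2-TC was below N2-GC. ins-32 read 6.12, 5.94 and 5.78 in the transport control, 6.40, 6.40 and 6.26 in ground control, 6.40, 6.45 and 6.96 in centrifuged flight and 6.23, 6.31 and 6.15 in static flight. Its transport control arrays were the 3 lowest, by a narrow margin. The 31 members that did not pass lay between -0.94 and 0.87.

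**Figure D3:**
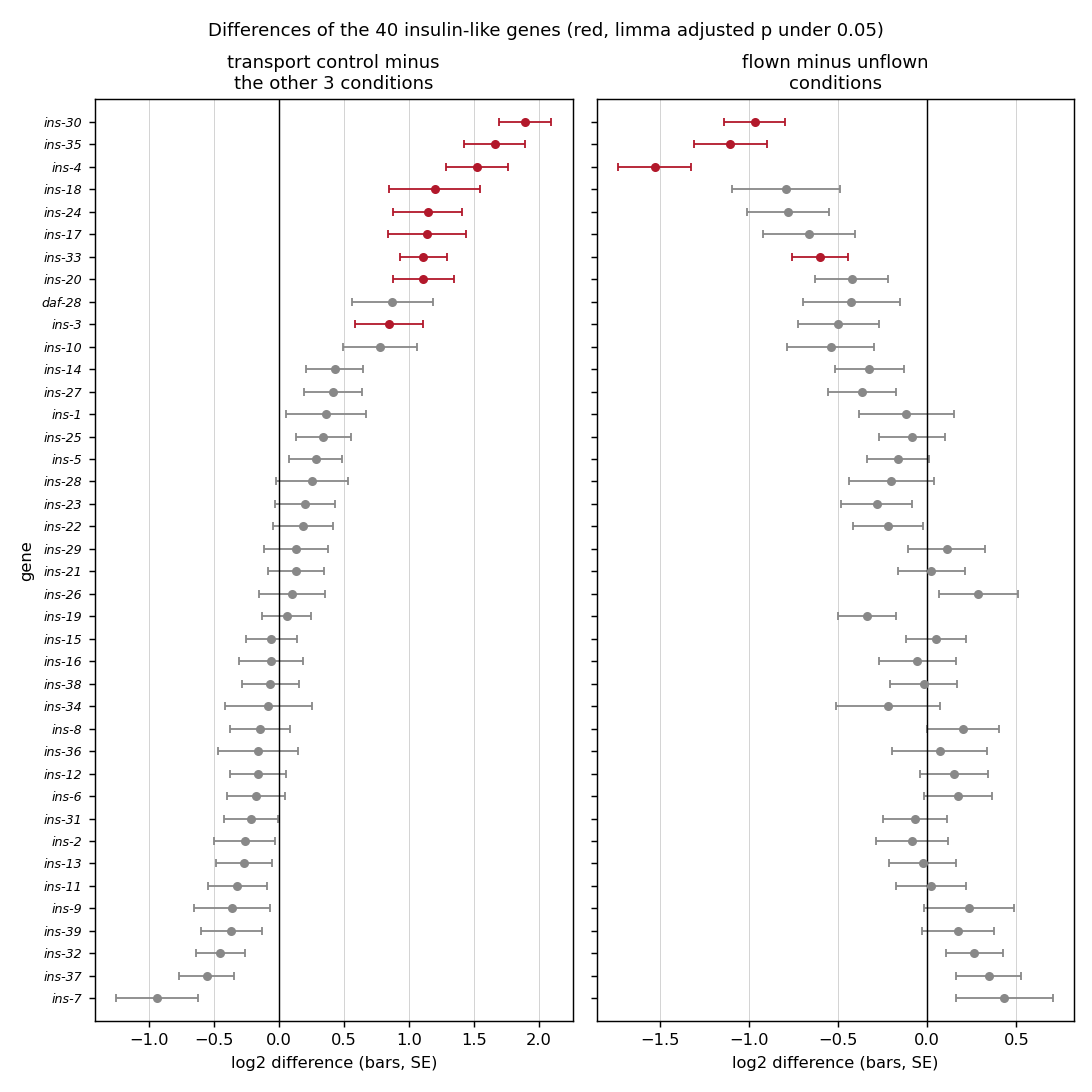
Log2 difference of each of the 40 members for the transport control minus the other 3 conditions (left) and for flown minus unflown conditions (right), with bars of 1 SE from the limma fit and red for an adjusted p under 0.05. On the left 9 members are red and all lie at 0.84 or more, and on the right ins-4, ins-30, ins-33 and ins-35 are red and all lie at -0.60 or lower.

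Markers of stage and tissue moved with the same contrast. Of 10 dauer markers, 4 were higher in the transport control, among them the cuticlin genes cut-1 (3.42) and cut-6 (2.22) of the larval cuticle and col-2 (2.99), and dao-4 was lower (-1.48). Their summed intensity was 34826 to 58138 in the transport control, 27915 to 30479 in ground control, 28281 to 32970 in centrifuged flight and 24964 to 30149 in static flight. Of 6 yolk protein genes 5 were lower, with vit-3 at -1.81, and their sums were 5432 to 13045, 9012 to 17692, 12431 to 28124 and 15109 to 27280 in the same order. Of 23 germline and oocyte genes 3 were lower, and the sums were 19170 to 95177, 41026 to 48440, 36814 to 56565 and 50244 to 92421. The transport control arrays differed among themselves in these germline genes, with a sum of 95177 on N2-TC and 19170 and 22295 on dys-1-TC and ced-1-TC. N2-TC was also the array on which ins-3, ins-17, ins-18 and ins-10 did not stand apart. Without it the 9 members still passed, and ins-10 (1.19, adjusted p = 0.0190) and ins-7 (-1.23, adjusted p = 0.0446) passed as well. The part of these markers in the rise of the insulin genes was not tested.

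Neurons and gut are the main sources of insulin-like peptides. Of 20 pan-neuronal genes, 5 were higher in the transport control and 0 lower, among them unc-33 (1.20), and their sums were 61942 to 101804 in the transport control, 28286 to 73721 in ground control, 45502 to 77109 in centrifuged flight and 24573 to 73604 in static flight. Of 26 genes of ciliated sensory neurons 0 passed and 10 were higher at an unadjusted p under 0.05, with sums of 4676 to 8031, 4023 to 4694, 4444 to 5426 and 3929 to 4792. Of 17 gut genes 1 was higher (pgp-1, 1.53) and 2 were lower (vha-6 at -1.35 and pho-1 at -0.96), with sums of 192376 to 194086, 161321 to 221566, 151557 to 242434 and 164363 to 202437. In RNA from whole worms, fewer cells of a type and less RNA per cell cannot be told apart.

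Among the worms that never flew, the ground control was lower than the transport control for 4 members. These were ins-30 at -1.87 ± 0.24 (adjusted p = 0.000431), ins-33 at -1.06 ± 0.22 (adjusted p = 0.0105), ins-35 at -1.38 ± 0.29 (adjusted p = 0.0119) and ins-20 at -1.24 ± 0.29 (adjusted p = 0.0225). For each the 3 ground control arrays lay below the 3 transport control arrays, and the sign was the same in 3 of 3 strains. Over all genes 2.25% were lower and 3.09% higher, against 4 and 0 members. Without adjustment 10 members were lower at p under 0.05 and 1 higher, against 11.1% and 8.34%, and groups did not overlap for 8 members lower and 3 higher, against 10.6% and 8.98%. ins-24 (-0.93), ins-17 (-1.04) and ins-4 (-0.75) had adjusted p of 0.119, 0.122 and 0.161, and in the other direction ins-7 was at 0.97 (adjusted p = 0.175). With single arrays left out only ins-30 always passed, at a largest adjusted p of 0.00411. The count was 1 without ced-1-TC and 2 without dys-1-GC or ced-1-GC. In this contrast 3 of 10 dauer markers and 1 of 20 pan-neuronal genes were also lower in ground control. Another dauer marker, dao-4, was higher by 1.51 (adjusted p = 0.00421), as was 1 of 6 yolk genes, and of 17 gut genes vha-6 was higher (1.07) and pgp-1 lower (-2.01). Their part in the lower insulin genes of the ground control was not tested.

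The comparison of flown with unflown worms put both flight conditions against both controls, and shares the transport control arrays with the contrasts above. ins-4 was lower in flight by 1.53 ± 0.20 (SE, adjusted p = 0.000428), or 2.88-fold, with differences of -1.10 in N2, -1.74 in the dys-1 mutant and -1.75 in the ced-1 mutant. The 6 flown arrays read 6.83 to 8.18 with a median of 7.43, and the 6 unflown arrays 8.65 to 9.85 with a median of 8.94. These groups did not overlap for ins-4 alone among members, against 0.2% of all genes in this direction and 0.614% in the other. ins-35 was at -1.10 ± 0.21 (adjusted p = 0.00511), ins-30 at -0.97 ± 0.17 (adjusted p = 0.00367) and ins-33 at -0.60 ± 0.15 (adjusted p = 0.0355), all with overlapping groups. Over all genes 1.66% were lower and 4.28% higher, against 4 members lower and 0 higher. At an unadjusted p under 0.05 there were 9 lower and 0 higher, against 7.67% and 11.5%. Of the markers, 4 of 6 yolk genes, 3 of 23 germline and oocyte genes and 2 of 17 gut genes were higher in flown worms, 3 of 10 dauer markers were lower and 1 was higher, and 0 of 20 pan-neuronal genes passed in limma, with 3 lower before adjustment. Their part in the lower insulin genes was not tested.

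Set against the ground control alone, the flown worms gave 0 called members at an adjusted p under 0.05 in limma, where 0.04% of all genes passed. ins-4 was at -1.15 ± 0.25 (adjusted p = 0.191), its flown arrays still all below the 3 ground control arrays. ins-35 was at -0.41 (adjusted p = 0.706), ins-30 at -0.03 (adjusted p = 0.980) and ins-33 at -0.07 (adjusted p = 0.951). ins-19 was at -0.46 (adjusted p = 0.594). Of the members short of the threshold in the pooled contrast, ins-24 was at -0.78 (adjusted p = 0.0631), ins-18 at -0.79 (adjusted p = 0.159) and ins-17 at -0.66 (adjusted p = 0.169). ins-33 missed the threshold without any of 10 of the 12 arrays taken singly.

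Static flight against ground control is the closest match of flight and ground hardware. No member was called by limma, where 0.19% of all genes were higher and 0.02% lower, and without adjustment 3 members were lower at p under 0.05 and 0 higher, against 3.38% and 8.33%. ins-4 came nearest, at -1.46 ± 0.29 (adjusted p = 0.060), with -0.99, -1.58 and -1.82 in N2, dys-1 and ced-1 worms and no overlap between the groups. With 50 added to each intensity before the log, its adjusted p was 0.0459, and over all alternatives it ranged from 0.0459 to 0.454. ins-35 was at -0.97 ± 0.29 (adjusted p = 0.185) and ins-27 at -0.64 ± 0.27 (adjusted p = 0.378). Groups did not overlap for ins-4, ins-27 and ins-33, all lower in static flight, against 3.91% of all genes, and for 0 members higher, against 10.2%. In the direction of the differences, 26 members were lower and 14 higher, against 44.7% and 55.3% of all genes. Among the markers of stage and tissue 0 passed in limma in this contrast. Before adjustment, at p under 0.05, 7 of 23 germline and oocyte genes and 3 of 6 yolk genes were higher and 0 lower. Of 10 dauer markers 1 was higher and 2 were lower at that threshold, col-2 at -1.49 and cut-1 at -1.98. For pan-neuronal genes the count was 0 of 20. In sign alone, 22 germline and 6 yolk genes were higher and 15 pan-neuronal genes lower. Within static flight the pan-neuronal sum was 33834 on N2-SS, 73604 on dys-1-SS and 24573 on ced-1-SS. The germline sums were 85821, 50244 and 92421 in the same order. N2-SS and ced-1-SS were also the lowest arrays for ins-35 and the highest for ins-7. In ground control the pan-neuronal sums were 73721, 64484 and 28286 in the same strain order. The part of these markers in the values of the insulin genes was not tested.

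The centrifuge separates weightlessness from the rest of the flight, although the measured dose was also a little higher on it. Between static and centrifuged flight 0 members were called, and 0.005% of all genes were higher in static flight and 0% lower. Before adjustment, at a p under 0.05, static flight was lower for 5 members and higher for 3, against 4.02% and 7.94%. The lower members of smallest p were ins-35 at -1.12 ± 0.29 (adjusted p = 0.134), ins-27 at -0.80 ± 0.27 (adjusted p = 0.242) and ins-28 at -0.86 ± 0.34 (adjusted p = 0.330). On the higher side were ins-7 at 1.16 ± 0.38 (adjusted p = 0.235), ins-8 at 0.71 ± 0.28 (adjusted p = 0.339) and ins-37 at 0.61 ± 0.26 (adjusted p = 0.369). Groups did not overlap for ins-27, ins-32 and ins-33, lower in static flight, against 4.88% of all genes, and for 0 members higher, against 8.54%.

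Values by strain were uneven in this contrast. The ins-7 difference was 1.91 in N2 and 1.85 in the ced-1 mutant but -0.29 in the dys-1 mutant, and that of its chromosomal neighbour ins-8 was 0.98, 1.38 and -0.24 in the same strains. For ins-28 the values were 0.11 in N2, -1.37 in the dys-1 mutant and -1.33 in the ced-1 mutant. ins-8 read 6.78, 5.96 and 7.22 in static flight, 5.80, 6.21 and 5.84 in centrifuged flight, 6.08, 5.83 and 6.43 in ground control and 6.35, 5.90 and 6.03 in the transport control. Its N2 and ced-1 arrays of static flight were the 2 highest of the 12. ins-28 read 8.06, 7.76 and 6.92 in static flight, 7.95, 9.13 and 8.25 in centrifuged flight, 8.23, 8.32 and 7.81 in ground control and 8.11, 8.06 and 8.74 in the transport control, with the extremes at ced-1-SS and dys-1-SC. A difference between strains within this contrast was not tested, since each strain has a single array per condition.

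Centrifuged flight and ground control, both at 1 g, gave 0 called members, against 0.00999% of all genes higher and 0.025% lower, with 1 member higher and 2 lower when p was not adjusted, against 3.09% and 2.93%. ins-4 was at -0.84 ± 0.29 (adjusted p = 0.724), with no overlap. Groups did not overlap for 2 members lower in flight (ins-4 and ins-19), against 3.88% of all genes, and for 2 higher (ins-26 and ins-29), against 6.2%. ins-26 was at 0.70 ± 0.31 (adjusted p = 0.807) and ins-19 at -0.52 ± 0.23 (adjusted p = 0.808). ins-26 read 7.69, 7.43 and 7.33 in centrifuged flight, 7.01, 6.95 and 6.39 in ground control, 6.55, 7.23 and 7.49 in static flight and 6.55, 7.74 and 7.37 in the transport control. ins-19 read 6.05, 6.12 and 5.79 in centrifuged flight, 6.30, 6.61 and 6.59 in ground control, 5.80, 6.004 and 6.47 in static flight and 6.23, 6.09 and 6.44 in the transport control. In both genes the 2 groups compared did not overlap, and the other conditions spread across them.

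Several peptides with well studied roles were not called in any comparison. daf-28, the agonist whose mutation drives dauer entry, read 10.66, 10.81 and 11.33 in the transport control, 10.58, 10.03 and 9.55 in ground control, 9.88, 9.90 and 11.50 in centrifuged flight and 9.54, 9.91 and 9.67 in static flight. Its highest reading was ced-1-SC, far above the N2 and dys-1 arrays of that condition, and the transport control arrays overlapped with the others through it. Left out, that array brought daf-28 to 1.06 in the transport control contrast (adjusted p = 0.0135), and its adjusted p over all alternatives ran from 0.0135 to 0.360. ins-6, the agonist of dauer exit, read 6.95, 7.47 and 6.89 in the transport control, 7.04, 7.08 and 7.45 in ground control, 7.73, 7.19 and 6.99 in centrifuged flight and 7.23, 7.16 and 7.63 in static flight. Its whole range was 0.84 units and no condition stood apart. Against ground control, static flight was at 0.15 ± 0.27 (adjusted p = 0.887).

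ins-7, a gut agonist that DAF-16 represses, had the lowest transport control difference of the family and passed in no comparison of the main fit. It read 9.14, 7.49 and 9.32 in static flight, 7.22, 7.79 and 7.46 in centrifuged flight, 7.76, 7.99 and 8.62 in ground control and 7.70, 6.35 and 7.41 in the transport control. N2-SS and ced-1-SS were the 2 highest arrays and dys-1-TC the lowest, nearly 3 units below them. In the transport control contrast its adjusted p ranged from 0.0216, without dys-1-SS, to 0.351 over the alternatives. ins-37 read 9.14, 8.45 and 8.94 in static flight, 7.86, 8.32 and 8.52 in centrifuged flight, 8.34, 8.55 and 8.41 in ground control and 8.19, 7.56 and 8.10 in the transport control. As with ins-7, N2-SS and ced-1-SS were highest and dys-1-TC lowest.

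ins-1, an antagonist made by neurons, read 6.88, 8.52 and 6.65 in the transport control, 7.05, 7.12 and 6.60 in ground control, 6.77, 6.89 and 7.21 in centrifuged flight and 7.61, 7.42 and 6.22 in static flight. The high reading of dys-1-TC was not shared by the other 2 strains, and the contrast, at 0.36 ± 0.31 (adjusted p = 0.514), was 1.38 in dys-1, -0.27 in N2 and -0.03 in ced-1 worms. ins-27 read 6.27, 6.83 and 6.61 in static flight, 7.44, 6.90 and 7.77 in centrifuged flight, 7.44, 7.21 and 6.98 in ground control and 7.26, 7.33 and 7.80 in the transport control. Its 3 static flight arrays were the lowest of the 12, and the other conditions overlapped.

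**Figure D4:**
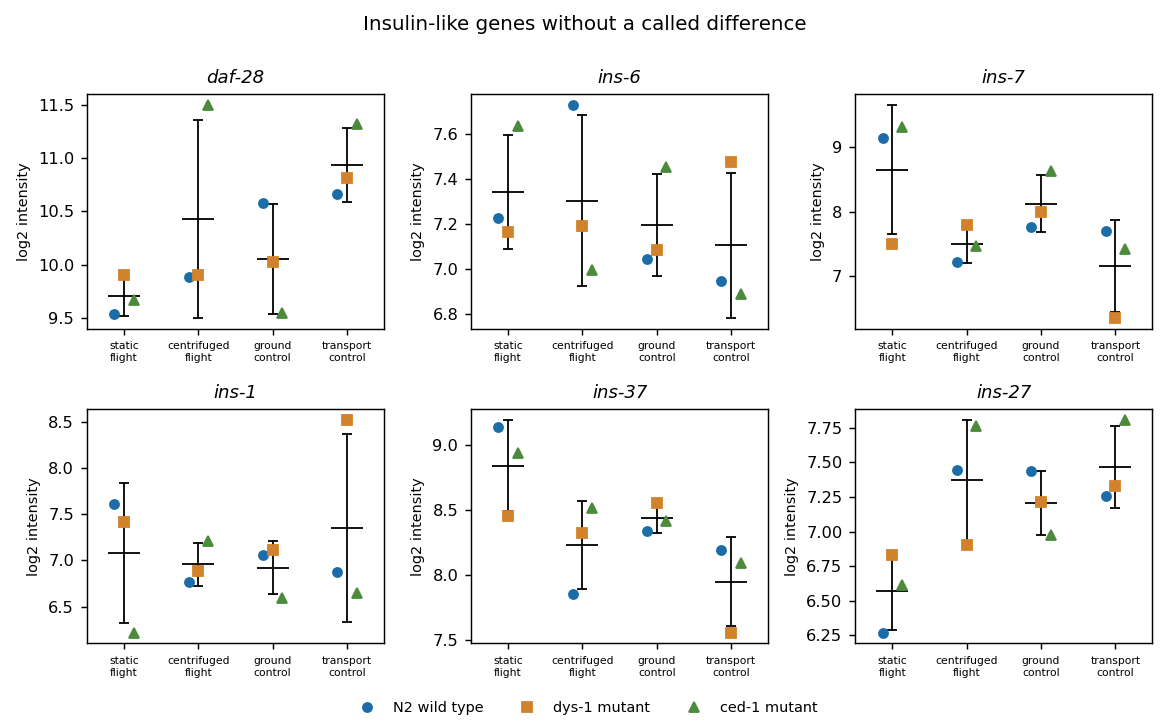
Log2 intensity of 6 members not called in any comparison, by condition, with a symbol per strain, a line at the mean and bars of 1 SD (n = 3); each vertical axis has its own range. ins-27 is lowest on the 3 static flight arrays, ins-7 and ins-37 are highest on the N2 and ced-1 arrays of static flight, and daf-28 has a single high array in centrifuged flight.

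No member was called between strains. limma called 0 members for dys-1 against wild type, for ced-1 against wild type and for any strain difference, and 0% of all genes for each. At an unadjusted p under 0.05 the dys-1 mutant had 2 members higher and 1 lower, against 7.59% and 7.28% of all genes. The ced-1 mutant had 1 higher and 0 lower, against 2.78% and 2.51%. The test of any strain difference had 4 members at an unadjusted p under 0.05, against 16% of genes. In the dys-1 mutant ins-35 was at 0.77 ± 0.25 (adjusted p = 0.217), ins-24 at 0.64 ± 0.28 (adjusted p = 0.313) and ins-31 at -0.49 ± 0.22 (adjusted p = 0.314). ins-35 and ins-24 were higher than in N2 under 4 of 4 conditions. In the ced-1 mutant ins-5 was at 0.60 ± 0.21 (adjusted p = 0.908), also higher under 4 of 4 conditions.

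ins-5 read 7.77, 7.50 and 8.21 in the transport control, 7.34, 7.37 and 7.997 in ground control, 7.74, 7.23 and 8.14 in centrifuged flight and 6.80, 7.57 and 7.72 in static flight, with the ced-1 array highest in each. ins-31 read 6.63, 6.34 and 6.55 in the transport control, 7.33, 6.42 and 6.96 in ground control, 7.18, 6.41 and 6.30 in centrifuged flight and 6.54, 6.54 and 6.85 in static flight, where N2 and dys-1 worms read nearly the same. The test of whether flight acted differently in a mutant called 0 members and 0% of genes, with 2 members at an unadjusted p under 0.05 for the dys-1 mutant (ins-9 and ins-36), against 2.29% of genes, and 0 for the ced-1 mutant, against 3.08%.

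Many insulin genes are neighbours. With members joined when less than 20000 bases apart in the reference gene table, 7 clusters held 26 members and 14 stood alone. In the cluster with ins-2, ins-3, ins-4, ins-5, ins-6 and ins-20, 3 of 6 rose in the transport control (ins-3, ins-4 and ins-20), while ins-2 was at -0.26, ins-5 at 0.28 and ins-6 at -0.18. Genes that rose thus sat beside genes that were not called. Of the 7 members in the cluster with ins-28, ins-29, ins-25, ins-27, ins-24, ins-30 and ins-26, the adjacent pair ins-24 and ins-30 rose, and the other 5 lay between 0.10 and 0.41. In the other 5 clusters 0 members were called. The remaining 4 called members, ins-17, ins-18, ins-33 and ins-35, stood alone. Neighbours of like sequence can share probe signal, and this could not be checked without the probe sequences.

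**Figure D5:**
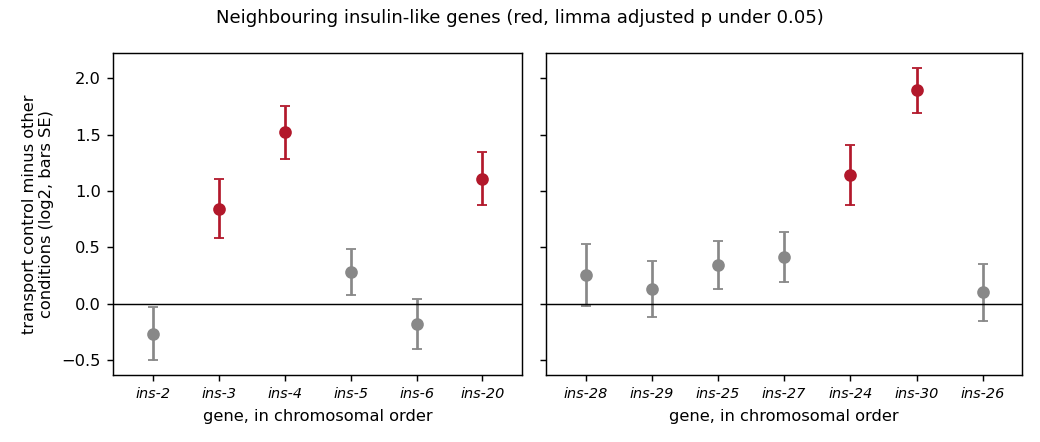
Log2 difference of the transport control minus the other conditions, with bars of 1 SE, for the 6 and 7 members of the 2 largest gene clusters in chromosomal order, red for an adjusted p under 0.05. ins-4 at 1.52 lies between ins-3 at 0.84 and ins-5 at 0.28, and ins-30 at 1.89 between ins-24 at 1.14 and ins-26 at 0.10.

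Downstream of the peptides, the receptor itself was higher in the transport control. Of 17 genes of the receptor and kinase chain 2 rose, pdk-1 by 1.00 ± 0.22 (adjusted p = 0.00774) and daf-2 by 0.88 ± 0.23 (adjusted p = 0.0228), and 0 fell, with a median of 0.08. Over all genes 6% were higher and 6.47% lower, with a median of 0.004, so the count for the chain was not far from that share. daf-2 read 8.87, 9.27 and 8.86 in the transport control and 7.28 to 8.71 on the other arrays, without overlap. daf-16 was not called and read 9.71 to 10.82 over the 12 arrays. Of 15 genes that process or release peptides 3 rose and 0 fell. They were kpc-1 (0.74), the protease that cuts the DAF-28 precursor, hid-1 (0.68), of dense-core vesicles, and unc-108 (0.68), a Rab GTPase of the same vesicles. This list shares genes such as rab-3 and egl-3 with the pan-neuronal list.

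The list of genes under DAF-16 control holds genes that it activates, such as sod-3 and mtl-1, and genes that it represses, such as dod-17 and dod-24, so the counts give no direction of DAF-16 activity. Of 21 measured targets 5 rose in the transport control, among them scl-1 (1.61), a secreted protein of long-lived worms, and dod-17 (1.24), and 3 fell, among them the metallothionein gene mtl-2 (-1.61). In flown against unflown worms 2 targets were higher and 3 lower, and in static flight against ground control dod-23 was higher by 2.70 ± 0.36 (adjusted p = 0.0188) and was the only target called. In these same contrasts the receptor chain and the processing genes had 0 calls each.

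In all, 18 members had no unadjusted p under 0.05 in any of the 10 comparisons other than the interactions. They were ins-1, ins-2, ins-6, ins-9, ins-11, ins-12, ins-13, ins-14, ins-15, ins-16, ins-21, ins-22, ins-23, ins-25, ins-29, ins-34, ins-36 and ins-39. Single readings of these ran from 5.81 (ins-13) to 8.52 (ins-1 on dys-1-TC), and their transport control differences from -0.37 (ins-39) to 0.43 (ins-14). Among them ins-11, a gut peptide linked to pathogen avoidance, read 6.55 to 8.07, and ins-22, widely used as a secretion reporter, 6.16 to 7.10. The pseudogene ins-38 read 5.91 to 7.38.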

How the data were processed

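Total RNA of 12 worm samples was labelled with Cy3 and hybridised to single-colour NimbleGen arrays, 1 per sample. The authors deposited 1 linear intensity per feature for 23187 features, normalized with RMA per the submitters' processing notes, whose version is not named there. Normalization between arrays, usually a step of RMA, can hide a difference in the amount of RNA per worm. The deposited series table held 18185 of these features, with log2 values within 1.3e-06 of the per-array files, and 27 of the 40 members. Arrays give no counts, so their number limits the precision.

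From the deposited intensity, log2 was taken with no pseudocount and averaged per WormBase gene. Names came from the RefSeq gene table (assembly WBcel235), which matched 19428 of 20018 genes and all 40 members. The array's genome build was not given, so no coordinates are printed. limma 3.58.1 in R 4.3.3 fitted condition and strain over all 12 arrays (6 residual and 7.71 prior degrees of freedom), with Benjamini-Hochberg adjustment over 20018 genes. Strain, the replicate block, comes from the labels. Deviations of same-strain arrays from their condition means correlated at -0.124 to 0.468 (mean 0.152), with 10 of 18 pairs above 0.1. The mean was -0.0768 for 36 other pairs. That contrast is no evidence for the strain block, since deviations from a condition mean cancel within the condition and push the other pairs the opposite way. The interaction was fitted with flown or unflown by strain. The fit was also run on simulated data whose noise was independent between arrays, so that run cannot show how it performs on correlated arrays. Members and gene lists were chosen with earlier results of these data known. Members named with full statistics are those that passed and, otherwise, the 3 of smallest unadjusted p under 0.05 in each direction, and members of known role get their array values. The list genes named were the 3 of smallest p where possible. dod-8, tts-1 and opt-2 of the lists were not found among the gene names. No slide or scan information was given, so batches could not be examined.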

Additional observations from a re-analysis of the deposited data

Results flagged for a closer look

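Within a strain, a single condition stood far from the other 3 in 9 of 120 groups of 4 arrays, by Dixon's criterion for a sample far from the others. Chance gives about 1 in 20 among repeats, but the 4 arrays of a strain are 4 conditions, so that figure is no strict yardstick. The share over all genes was not computed. In N2 the flagged readings on the transport control array were ins-20 at 7.94 and ins-33 at 8.76, both above the rest. On the static flight array of N2 they were ins-21, high at 7.02, and ins-27, low at 6.27. In the dys-1 mutant they were daf-28 at 10.81 on the transport control array and ins-16 at 7.40 on the ground control array, both high. In the ced-1 mutant they were ins-29 high at 7.49 on the centrifuged flight array and, in ground control, ins-38 high at 7.38 and ins-26 low at 6.39.

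For 2 members both flown arrays lay above both unflown arrays in a strain and below them in another, as for 9.5% of all genes. ins-9 differed by 1.01 between flown and unflown worms in N2 and by -0.52 in the dys-1 mutant. ins-36 differed by 0.63 in N2 and by 0.39 in the ced-1 mutant, against -0.81 in the dys-1 mutant. The interaction of flight and the dys-1 mutation in limma was -1.53 for ins-9 and -1.44 for ins-36, both with an adjusted p of 0.9995, so these differences did not pass.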

How the results depend on the processing

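Alternatives were another normalization, an offset, the features of the series table alone, other variance models and array weights. The strain block and the arrays in the fit were also varied. Chosen after seeing the data were flight against the ground control alone and fits without the transport control. No difference changed sign among those recomputed, which were those of members that passed or had the smallest p in a comparison. Without moderation of the variance, the members called fell to 2 for ground against transport control, 4 for the transport control against the rest, 2 for flown against unflown and 2 for any condition. With 50 added to the intensity, static flight against ground control had 1 member (ins-4). Flight against the ground control alone had 0. With an array or a strain left out, the counts ran from 1 to 6, 4 to 12, 2 to 5 and 3 to 10 in the same order of comparisons, and stayed at 0 to 0 for the 3 other condition pairs, the strains and the interactions. The lowest counts came without ced-1-TC or the ced-1 strain, and for flown against unflown without N2. In ground against transport control ins-20, ins-33 and ins-35 lost their calls without N2 too, at adjusted p of 0.0566, 0.0768 and 0.0601 in limma. The shares of all genes called in the fits with arrays left out are not given here. With no replicate block (strain left out of the fit) the counts were 4, 8, 4 and 5, and ins-3 was lost at an adjusted p of 0.0813. Of 1150 values for single members, 1059 stayed on the same side of the threshold, 75 lost the call and 16 gained it. The cause of these changes was not tested. Signals over background could not be judged, since the files give no background, and 16 of 40 members were dim.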
